A study of Labrus bergylta with 24 samples.

Results

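Transcripts of lysosomal hydrolases and lysosomal membrane proteins were followed along the intestine of the ballan wrasse, a fish without a stomach. Protein levels and enzyme activity were not measured, so a rise or fall below is one of RNA. The genes were taken from a list of 36 names, and every gene model of the deposited table that carried one of these names was kept, with letter case and a final a or b ignored. This gave 47 of the 27392 gene models, under 33 of the names, and the rule used no measured value, although the list was drawn up with earlier results of these data known. HEXA, GALC and LGMN had no gene model under these names. The cathepsins and the subunits of the proton pump were not in the list. Gene symbols are written here in capitals, and the number after LABE_ is the gene model of the study's own genome assembly.

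The lysosome is an acidic compartment in which enzymes take apart proteins, sugars and lipids that reach it by endocytosis or autophagy. In mammals its soluble enzymes are glycoproteins that are sent there from the Golgi, its limiting membrane is coated by LAMP proteins, and transporters in that membrane return sugars, amino acids and cholesterol to the cytosol. TFEB is a transcription factor that raises the expression of many of these genes. In zebrafish and other fish, enterocytes rich in lysosomes in a posterior part of the intestine take up whole protein from the gut lumen and digest it inside the cell. The study likens the wrasse hind-gut to the mid-section of the zebrafish intestine, not to its final segment.

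The samples came from adult farmed ballan wrasse on a wrasse feed, with no treatment and with digestion under way, whose whole gut was taken in 4 parts, numbered from segment 1 at the front to segment 4, the hind-gut, and rinsed. Each of 6 fish contributed 1 library of whole tissue for every segment, so that there were 24 libraries in all and 6 for a segment. The libraries held 7867202 to 29650315 reads on gene models (median 19657832). The first number in the sample titles was taken as the fish. It runs from 1 to 6, and the results of the study also give 6 for each segment, while its methods name fewer fish.

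All 24 libraries resembled the other libraries of their labelled segment more than those of any other segment, but some did so less. Over genes chosen without the fish in question, the segment 4 library of fish 2 correlated at 0.676 with segment 4 of the other fish, where the other segment 4 libraries reached 0.947 to 0.979. With segment 3 of the other fish it correlated at 0.251, where the other segment 4 libraries gave -0.182 to -0.072. The segment 3 libraries of fish 2 and fish 6 correlated at 0.582 and 0.392 with segment 3. Of the 6 marker lists examined, villin (VIL1) and other genes of the intestinal epithelium were present in every segment, and genes that mark lysosome-rich enterocytes in zebrafish summed to 3494 to 7174 normalized counts in segments 1 to 3 and to 36030 to 117200 in segment 4. In fish 2 that sum was 36030 in segment 4, against 86170 to 117200 in the other 5 fish. The study had already listed CUBN, LRP2 and AMN, which are in this sum, among its genes most raised in segment 4. In whole tissue, fewer cells of a type and less RNA per cell cannot be told apart. Why the segment 4 library of fish 2 stood nearer to segment 3 was not tested.

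The values are normalized counts, that is reads on a gene model scaled by a size factor for each library. They were compared between segments as log2(value + 1) with limma over the 19515 gene models that reached 10 in 6 or more libraries, and adjusted p is the Benjamini-Hochberg value over all of these, held against 0.05. Of the 47 lysosomal gene models 46 passed this filter. The exception was LAMP1 LABE_00065038, which lay between 0 and 11.6 normalized counts in all libraries. Gene lengths were not used here, so levels are compared between segments and not between genes.

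The hind-gut stood apart from the rest of the intestine for this group of genes. In segment 4, 27 of the 46 gene models were higher than in segment 1 (background 17.1% of all gene models tested) and 3 were lower (background 14.8%). Against the neighbouring segment 3, 23 were higher (background 5.21%) and none was lower (background 5.82%), with 2 lower at an unadjusted p under 0.05 by limma, edgeR and DESeq2 alike. The median log2 fold change of the 46 was 0.74 against segment 1 and 0.62 against segment 3, where that of all gene models tested was 0.04 and -0.01. The 27 gene models that rose against segment 1 did so by 1.36-fold to 18.3-fold, with a median of 2.03-fold, and 24 of them were higher in segment 4 in all 6 fish. All 23 that rose against segment 3 were higher in segment 4 in 6 of 6 fish. Both sets were called on these same 6 fish, so their counts by fish are no separate support. For 14 of the 46, each of the 6 segment 4 values lay above all 18 values of segments 1 to 3, which was the case for 1.55% of all gene models tested.

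**Figure D1:**
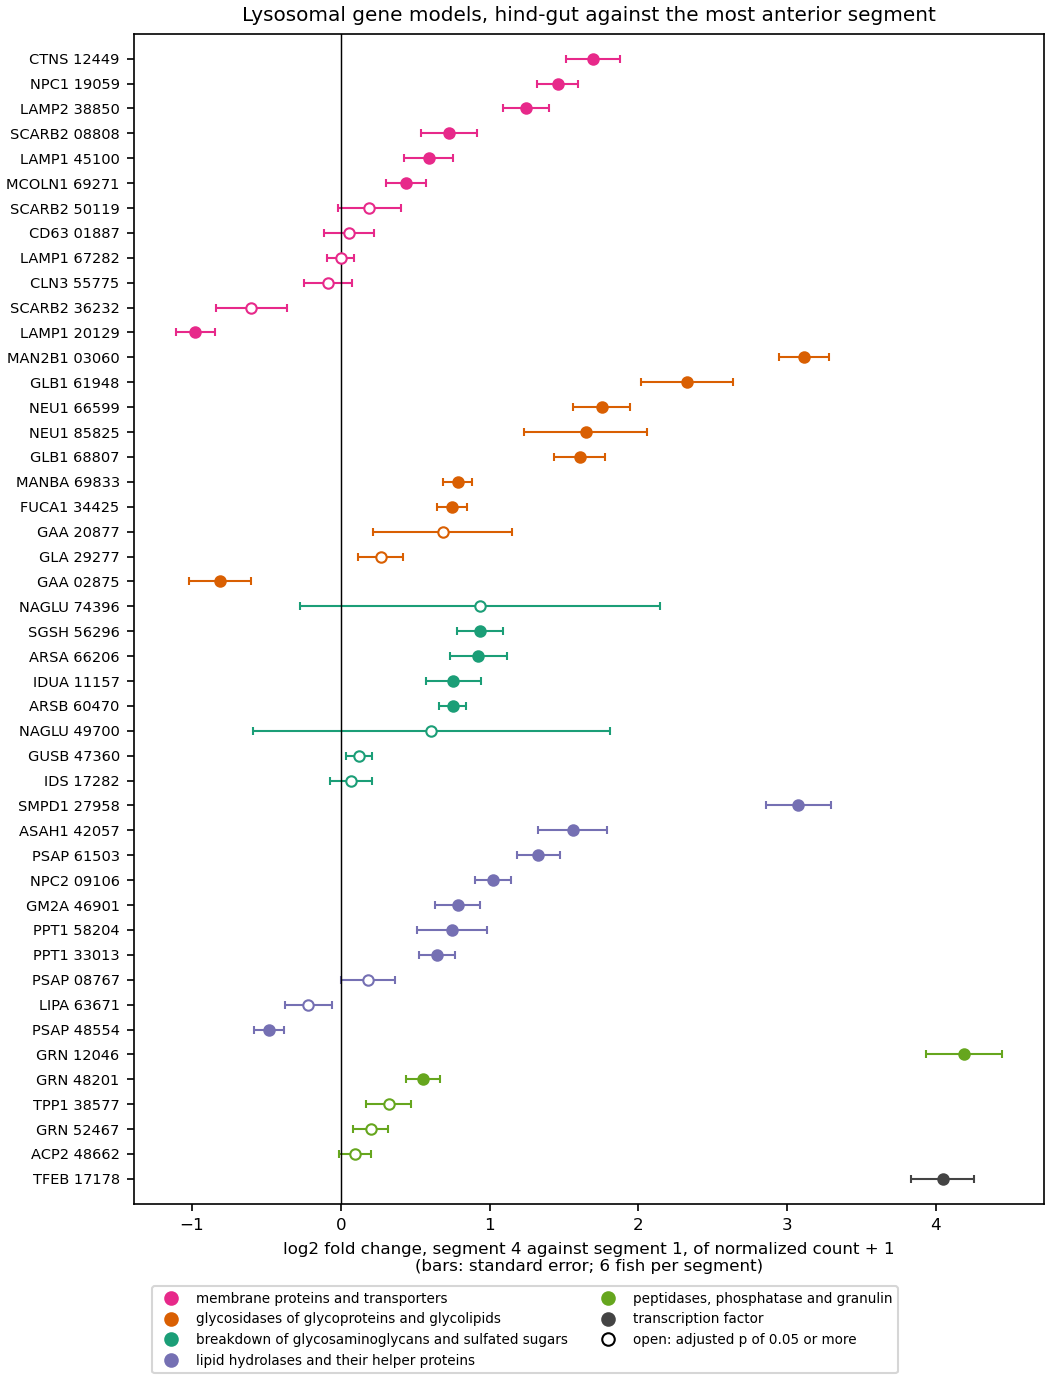
Log2 fold change in segment 4 against segment 1 (x axis, normalized count + 1) for the 46 gene models tested, named by symbol and the last 5 digits of the gene model and coloured by role. Points are limma estimates over 6 fish per segment and bars are standard errors, and filled points passed an adjusted p of 0.05. GRN 12046 and TFEB 17178 lie farthest to the right, LAMP1 20129 farthest to the left.

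With fish as a block in the limma fit, 31 gene models were higher and 4 lower than in segment 1, and 29 were higher and 2 lower than in segment 3. Every share called background is that of the limma fit of all libraries without a block. No share of all gene models is given for any other fit, or for counts at an unadjusted p under 0.05. Such counts, throughout, therefore cannot be set against a background. Without fish 6, 28 were called against segment 1 and 18 against segment 3. Without fish 2, and also without its segment 4 library alone, 31 and 27 were called. The segment 4 library of fish 2 was the lowest of the 6 in 22 of the 23 gene models that rose against segment 3. This count was not made for all gene models that rose, and that library stood apart over other genes too. When that library was set aside, 21 of the 46 had their 5 remaining segment 4 values above all values of segments 1 to 3 (3.13% of all gene models tested).

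TFEB (LABE_00017178), the transcription factor, had the second largest rise of the 46 after 1 gene model of GRN. Its lowest, median and highest values over the 6 fish were 386, 451 and 576 in segment 1, 410, 652 and 762 in segment 2, 878, 975 and 1324 in segment 3, and 3268, 8848 and 10946 in segment 4. Every segment 4 library was above every other library, every segment 3 library was above every library of segments 1 and 2, and fish 2 gave the lowest of the segment 4 values. Between segments 4 and 1 it rose by 4.05 on the log2 scale (standard error 0.21, adjusted p = 1.45e-12), or 16.5-fold. It was 1.12 (adjusted p = 0.000715) between segments 3 and 1 and 2.92 (adjusted p = 7.6e-10) between segments 4 and 3, so that TFEB rose along the gut before the hind-gut and more steeply at its start. Against segment 2, segment 3 gave a log2 fold change of 0.72 that passed with fish as a block (adjusted p = 0.041) and not without it (adjusted p = 0.083).

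Of 12 tested gene models of membrane proteins and transporters, 6 rose from segment 1 to segment 4 (background 17.1%) and 1 fell (background 14.8%). NPC1 (LABE_00019059), which moves cholesterol out of the lysosome, had lowest, median and highest values of 407, 574 and 664 in segment 1, 565, 598 and 739 in segment 2, 580, 665 and 752 in segment 3, and 933, 1659 and 1925 in segment 4. Segments 1 to 3 overlapped and all segment 4 libraries lay above them. NPC1 rose by 1.46 on the log2 scale between segments 1 and 4 (standard error 0.14, adjusted p = 1.85e-08). LAMP2 (LABE_00038850), a main glycoprotein of the lysosomal membrane, ranged from 10567 to 18978 with a median of 13799 in segment 1, from 11852 to 19317 (median 13480) in segment 2, from 11884 to 17046 (median 14208) in segment 3 and from 20496 to 42652 (median 34788) in segment 4. Segments 1 to 3 overlapped and segment 4 lay above them, but fish 2 reached 19317 in segment 2 and 20496 in segment 4 and so changed little, while the other fish had 32364 or more in segment 4. LAMP2 rose by 1.25 on the log2 scale (standard error 0.16, adjusted p = 1.17e-06).

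CTNS (LABE_00012449), the exporter of cystine, rose by 1.70 on the log2 scale (adjusted p = 1.44e-07), and SCARB2 LABE_00008808, whose mammalian product carries glucocerebrosidase to the lysosome, by 0.73 (adjusted p = 0.00407). The other tested SCARB2 gene models, LABE_00036232 and LABE_00050119, gave -0.60 and 0.19. Neither passed in the limma fit of all libraries without a block. MCOLN1 (LABE_00069271), a calcium channel of the lysosomal membrane, rose by 0.44 (adjusted p = 0.016), a call that was lost without fish 3 (adjusted p = 0.115) and without fish 6 (adjusted p = 0.136). The membrane proteins held 5 of the 16 gene models that did not pass between segments 4 and 1. CLN3 (LABE_00055775), a membrane protein whose loss causes a storage disease in humans, had the largest F test p of its role, with medians of 424, 436, 403 and 359 from segment 1 to segment 4 and ranges that overlapped in all segments (268 to 516, 300.0 to 499, 334 to 533 and 317 to 424; F test adjusted p = 0.916). CD63 (LABE_00001887), a tetraspanin of late endosomes and lysosomes, gave a log2 fold change of 0.06 (adjusted p = 0.85) between segments 4 and 1. Against segment 3 it gave 0.39, which did not pass (adjusted p = 0.163). It passed with fish as a block (adjusted p = 0.0334) and without fish 2 (log2 fold change 0.53, adjusted p = 0.000482), the only fish in which CD63 was lower in segment 4 than in segment 3 (13342 against 16167).

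**Figure D2:**
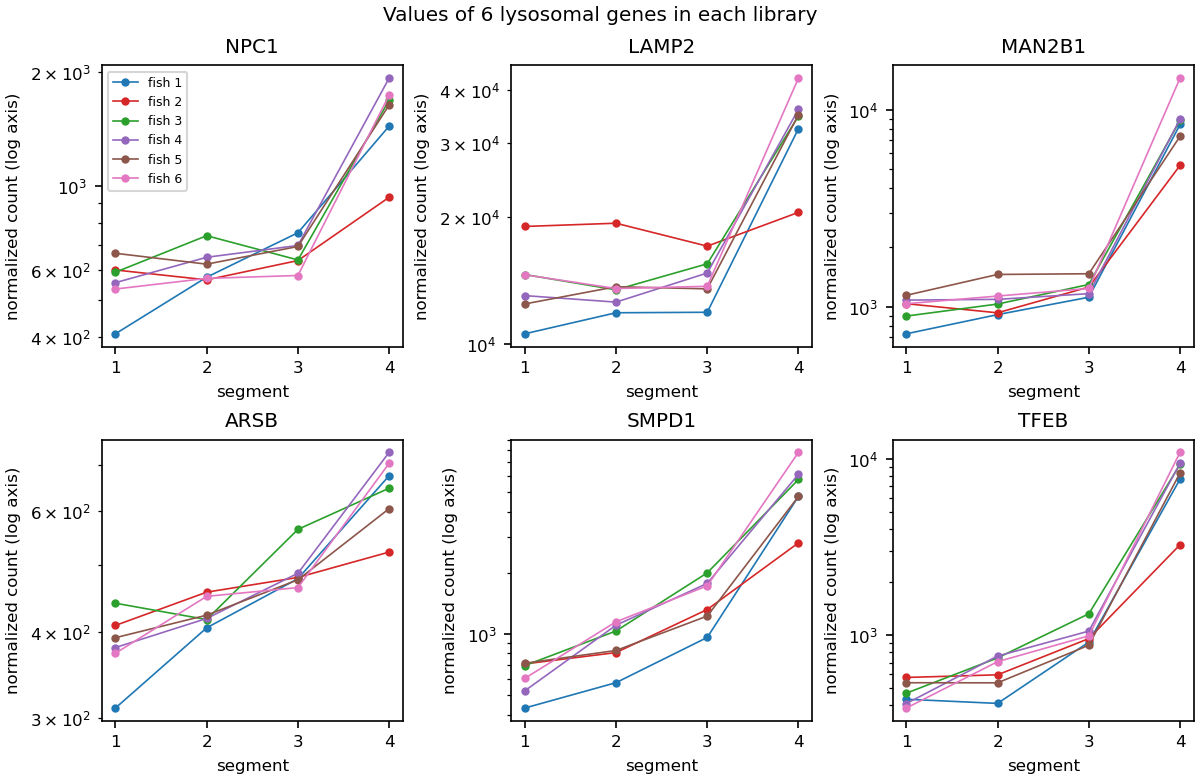
Normalized count (log axis) of 6 lysosomal genes in each of the 4 segments (x axis), with 1 line for each of the 6 fish. In NPC1, LAMP2, MAN2B1, SMPD1 and TFEB all segment 4 values lie above those of the other segments, and in each of the 6 panels fish 2 has the lowest segment 4 value.

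Most gene models of the enzymes that remove sugars from glycoproteins and glycolipids rose in the hind-gut. Of these 10 gene models, 7 were higher in segment 4 than in segment 1 (background 17.1%) and 1 was lower (background 14.8%). Against segment 3, 8 were higher (background 5.21%). MAN2B1 (LABE_00003060), the lysosomal alpha-mannosidase, had lowest, median and highest values of 729, 1036 and 1143 in segment 1, 912, 1061 and 1458 in segment 2, 1117, 1248 and 1471 in segment 3, and 5215, 8624 and 14468 in segment 4. The segment 4 libraries lay far above all others, while segments 1 to 3 overlapped. MAN2B1 rose by 3.11 on the log2 scale (standard error 0.17, adjusted p = 2.01e-12) between segments 1 and 4, or 8.66-fold, and by 2.75 (adjusted p = 2.91e-11) between segments 3 and 4.

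Both gene models of GLB1, the beta-galactosidase, rose against segment 1, LABE_00061948 by a log2 fold change of 2.33 and LABE_00068807 by 1.61 (adjusted p of 2.89e-06 and 1.1e-07). So did both of NEU1, the lysosomal sialidase, by 1.75 (LABE_00066599, adjusted p = 1.47e-07) and 1.65 (LABE_00085825, adjusted p = 0.00344). MANBA, the beta-mannosidase, and FUCA1, the alpha-fucosidase, rose less, by 0.79 and 0.75 (adjusted p of 1.13e-06 and 4.13e-06), and their 6 segment 4 values were still above all 18 others. GLA (LABE_00029277), alpha-galactosidase A, passed against segment 3 (log2 fold change 0.51, adjusted p = 0.0295) and not against segment 1 (0.27, adjusted p = 0.196). Its call against segment 3 was lost without any 1 of fish 1, 3, 4, 5 and 6 (adjusted p of 0.0539 to 0.15).

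GAA, the acid alpha-glucosidase that breaks down glycogen in the lysosome, had a pair of gene models with different behaviour. LABE_00002875 fell steadily, with segment means of 2135, 1877, 1580 and 1233 normalized counts, a log2 fold change of -0.81 (adjusted p = 0.00384) between segments 4 and 1, and a lower value in segment 4 in each fish. LABE_00020877 had lowest, median and highest values of 202, 248 and 1106 in segment 1, 230.4, 256 and 882 in segment 2, 235, 300.4 and 812 in segment 3, and 317, 489 and 1130.3 in segment 4. The segments overlapped widely because fish 1 and fish 4 were above 600 in every segment and the other fish below 510. Between segments 4 and 1 its log2 fold change of 0.68 did not pass (adjusted p = 0.29), and with fish as a block it did (adjusted p = 8.84e-05).

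Among the 8 gene models for the breakdown of glycosaminoglycans and sulfated sugars, 4 were higher in segment 4 than in segment 1 (background 17.1%). ARSB (LABE_00060470), a sulfatase that acts on dermatan and chondroitin sulfate, had lowest, median and highest values of 310, 386 and 440 in segment 1, 405, 420.4 and 457 in segment 2, 464, 479 and 563.5 in segment 3, and 522, 661 and 729.5 in segment 4. Segment 3 lay above segments 1 and 2 and overlapped with segment 4 through 1 library, that of fish 3. ARSB rose by a log2 fold change of 0.36 (adjusted p = 0.00803) between segments 1 and 3, by 0.39 (adjusted p = 0.00395) between segments 3 and 4, and by 0.75 (standard error 0.09, adjusted p = 6.48e-07) over both. The call between segments 3 and 4 was lost without fish 6 (adjusted p = 0.051).

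ARSA (LABE_00066206), the sulfatase that acts on sulfatides, followed another course. It rose between segments 1 and 3 (log2 fold change 1.03, adjusted p = 0.000565), and segment 4 gave -0.10 against segment 3 (adjusted p = 0.826). The step from segment 2 to segment 3 gave 0.65, which passed with fish as a block (adjusted p = 0.0115) and not without it. SGSH and IDUA, enzymes of heparan sulfate breakdown, rose by 0.93 and 0.76 between segments 4 and 1 (adjusted p of 5.26e-05 and 0.00271). Their rises against segment 3 (0.65 and 0.68) were not called without fish 6 (adjusted p of 0.0658 and 0.0908), nor was that of IDUA without fish 1 (0.0744) or fish 5 (0.06).

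GUSB (LABE_00047360), beta-glucuronidase, stayed within 784 to 1138 normalized counts in all libraries, with medians of 913, 892, 994 and 1024 from segment 1 to segment 4. All segments overlapped, and the log2 fold change between segments 4 and 1 was 0.12 (adjusted p = 0.299). IDS (LABE_00017282), iduronate sulfatase, gave 0.07 (adjusted p = 0.767) between segments 4 and 1, and its highest mean was in segment 3, where a log2 fold change of 0.36 against segment 1 passed with fish as a block (adjusted p = 0.0277).

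NAGLU, which also acts on heparan sulfate, varied mainly between fish. Gene model LABE_00049700 was at 0 in segments 1 to 3 and at 1.19 in segment 4 of fish 3, between 0 and 2.63 in fish 6, and between 33.4 and 63.4 in fish 4 and 5. LABE_00074396 was at 0 in all 4 segments of fish 4 and between 7.02 and 20.7 in fish 5, and was highest in segment 4 of fish 3 (113) and fish 6 (122). Fish 3 and 6, the lowest in LABE_00049700, were the highest in LABE_00074396 in segments 2 to 4, and fish 4 and 5, the lowest in LABE_00074396, were the highest in LABE_00049700 in every segment. Fish carried 97.1% and 96.5% of the spread that segments left in these gene models, against a median of 48.2% over the 46 and 45.4% over all gene models tested. The sum of both was 27.5 to 51.0 in segment 1 and 46.4 to 124 in segment 4. It was higher in segment 4 in 6 of 6 fish, but in fish 4 only by 46.4 against 45.6. In fish 2 the sum was higher in segment 3 (66.5) than in segment 4 (57.9). The sum was not tested. Neither gene model passed between segments 4 and 1 (adjusted p of 0.754 and 0.613), and with fish as a block LABE_00074396 did (log2 fold change 0.94, adjusted p = 0.0168). Whether these are separate genes or forms of 1 gene was not tested.

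**Figure D3:**
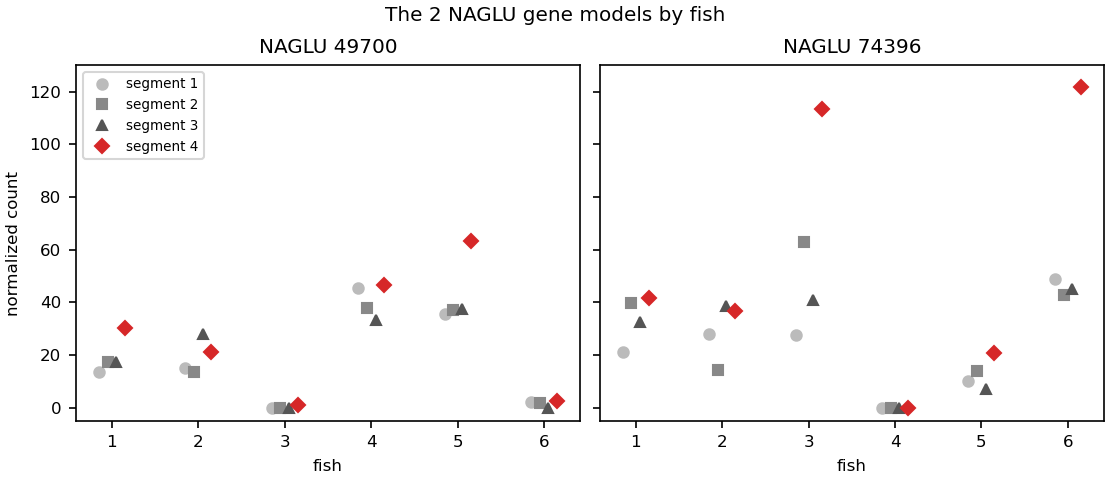
Normalized counts (y axis) of the 2 NAGLU gene models in each fish (x axis), with a symbol for each segment. In fish 3 and 6 the left gene model is at or near 0 and the right one reaches its highest segment 4 values, and in fish 4 the right one is at 0 in all 4 segments.

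Of 10 gene models of lipid hydrolases and helper proteins, 7 rose from segment 1 to segment 4 (background 17.1%) and 1 fell (background 14.8%). SMPD1 (LABE_00027958), acid sphingomyelinase, had lowest, median and highest values of 431, 649.7 and 716 in segment 1, 574, 930 and 1146 in segment 2, 959, 1520 and 1996 in segment 3, and 2805, 5255 and 7838 in segment 4. Segment 3 overlapped with segment 2 and not with segment 1, and segment 4 lay above all of them. SMPD1 rose by a log2 fold change of 1.27 (adjusted p = 0.000249) between segments 1 and 3 and by 1.81 (adjusted p = 1.8e-06) between segments 3 and 4, which adds up to 3.08 (standard error 0.22, adjusted p = 1.78e-10), or 8.43-fold. Like TFEB and ARSA it passed between segments 2 and 3 with fish as a block (log2 fold change 0.70, adjusted p = 0.0126).

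ASAH1, the acid ceramidase, rose by a log2 fold change of 1.56 (adjusted p = 1.25e-05) and NPC2, which hands cholesterol to NPC1, by 1.02 (adjusted p = 6.37e-07) between segments 4 and 1. GM2A, the activator protein for GM2 ganglioside, rose by 0.79 (adjusted p = 0.000257). PPT1, which removes palmitate from proteins, rose in both gene models, LABE_00033013 by 0.65 (adjusted p = 0.000224) and LABE_00058204 by 0.75 (adjusted p = 0.0173). The latter call was lost without fish 1 (adjusted p = 0.101) or fish 3 (adjusted p = 0.0647). LIPA (LABE_00063671), the acid lipase that splits cholesteryl esters and triglycerides, gave -0.22 (adjusted p = 0.331), and segment 4 exceeded segment 1 in 3 of 6 fish.

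PSAP, the precursor of the saposins that present sphingolipids to their hydrolases, had 3 gene models. LABE_00061503 ranged from 34294 to 46704 (median 41560) in segment 1, from 36118 to 48972 (median 40635) in segment 2, from 39151 to 52526 (median 43573) in segment 3 and from 62826 to 136220 (median 108200) in segment 4. Segments 1 to 3 overlapped and segment 4 lay above them, and this gene model rose by 1.33 on the log2 scale between segments 1 and 4 (standard error 0.14, adjusted p = 1.21e-07). LABE_00048554 fell, with lowest, median and highest values of 1492, 1705 and 1970 in segment 1, 1401, 1501 and 1681 in segment 2, 1221, 1418 and 1665 in segment 3, and 919, 1289 and 1433 in segment 4. No segment 4 library reached the lowest segment 1 library, and the log2 fold change was -0.48 (standard error 0.10, adjusted p = 0.000746). LABE_00008767 had medians of 2841, 3296, 2953 and 3476, overlapping ranges (2401 to 3771, 2425 to 4452, 2102 to 3957 and 2194 to 3999), and did not pass (F test adjusted p = 0.834).

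The small group of peptidases, a phosphatase and granulin held the gene model with the largest rise of all 46. GRN is the precursor of granulins, which in mammals reach the lysosome together with PSAP. GRN LABE_00012046 ranged from 1673 to 3051 (median 2246) in segment 1, from 1909 to 3714 (median 2678) in segment 2, from 2550 to 4569 (median 3704) in segment 3 and from 16078 to 62515 (median 44472) in segment 4. All segment 4 libraries lay above the rest, with fish 2 at 16078 and the other fish at 43519 or more. The log2 fold change of this gene model between segments 4 and 1 was 4.19 (standard error 0.26, adjusted p = 1.65e-11), or 18.3-fold. GRN LABE_00052467 had medians of 13020, 14094, 15302 and 15891 with overlapping ranges (11678 to 16583, 11544 to 16980, 13872 to 16754 and 12589 to 18795). Its log2 fold change of 0.20 did not pass (adjusted p = 0.202), and it did with fish as a block (adjusted p = 0.0398) and under quantile normalization (adjusted p = 0.0132).

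The third GRN gene model, LABE_00048201, rose by 0.55 (adjusted p = 0.000665). TPP1, which removes tripeptides from proteins, gave 0.32 (adjusted p = 0.112, against 0.00104 with fish as a block and 0.0114 under quantile normalization). ACP2, the lysosomal acid phosphatase, gave 0.09 (adjusted p = 0.566) between segments 4 and 1 and 0.34 (adjusted p = 0.0431) against segment 3. The latter call was lost without fish 3, 4, 5 or 6 (adjusted p of 0.104 to 0.161).

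In 9 names there was more than 1 gene model, and for some the gene models went different ways. LAMP1, the other main glycoprotein of the lysosomal membrane, was 1 of these. LABE_00020129 had lowest, median and highest values of 1071, 1346 and 1950 in segment 1, 1053, 1233 and 1612 in segment 2, 703, 763 and 1145 in segment 3, and 615, 741 and 782 in segment 4. Segment 4 lay below segments 1 and 2 and overlapped with segment 3, and the log2 fold change was -0.98 (standard error 0.13, adjusted p = 4.28e-06) between segments 4 and 1. LABE_00045100 had lowest, median and highest values of 280, 338 and 509.9 in segment 1, 251, 376 and 446 in segment 2, 324, 387 and 481 in segment 3, and 371, 579 and 648 in segment 4. The segments overlapped, and it rose by 0.59 (standard error 0.17, adjusted p = 0.00795), a call lost without fish 4 (adjusted p = 0.0619) or fish 6 (adjusted p = 0.0526). LABE_00067282 gave 0.00 on the log2 scale (standard error 0.09, adjusted p = 0.998), with segment means of 17290, 14700, 15160 and 17420 normalized counts.

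**Figure D4:**
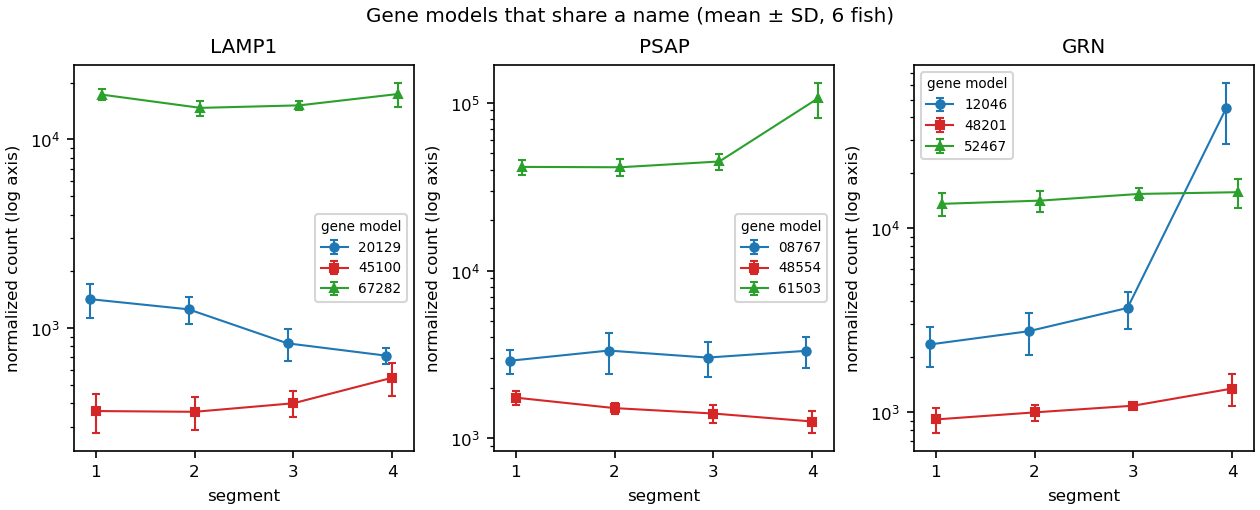
Segment means with SD over 6 fish (normalized count, log axis) of the tested gene models named LAMP1, PSAP and GRN, given by the last 5 digits of the gene model. LAMP1 20129 and PSAP 48554 fall towards segment 4 while LAMP1 45100, PSAP 61503 and GRN 12046 rise. Heights are not comparable between gene models, since lengths were not used.

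In 2 pairs, those of LAMP1 and PSAP, 1 gene model passed upwards and the other downwards between segments 4 and 1. The difference between gene models of 1 name was tested within fish for all 17 pairs with a two-sided exact sign-flip permutation test, a test added after the values were seen. With 6 fish its smallest p is 0.03125, which 10 pairs reached, and adjusted over the 17 pairs this is 0.0531, so no pair passed. This p is reached only where the difference has the same sign in 6 of 6 fish, so that agreement adds nothing to it. Since 6 fish allow no smaller p, no pair could pass through the size of its own difference. The test therefore does not show that gene models of 1 name changed alike. GRN LABE_00012046 rose by 3.99 more on the log2 scale than LABE_00052467 (standard error 0.37), PSAP LABE_00061503 by 1.81 more than LABE_00048554 (standard error 0.20) and LAMP1 LABE_00045100 by 1.57 more than LABE_00020129 (standard error 0.23). The GAA pair differed by 1.5 (standard error 0.17) and SCARB2 LABE_00008808 differed from LABE_00036232 by 1.33 (standard error 0.25). SCARB2 LABE_00036232 itself gave -0.60 between segments 4 and 1 (adjusted p = 0.0592, against 0.000242 with fish as a block, 0.0294 without fish 2 and 0.0339 with DESeq2). The NEU1 and PPT1 pairs differed by 0.11 and 0.10 (exact p of 0.531 and 0.5). The sources used here do not say how reads matching several gene models were counted, so values of gene models of 1 name are uncertain where their sequences are alike.

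Most of the change lay in the last step of the gut. Between segments 2 and 1 none of the 46 passed (background 0.477% higher and 0.2% lower), with 2 at an unadjusted p under 0.05 with limma and 4 each with edgeR and DESeq2, which also called none. Between segments 3 and 2 none was higher with limma (background 1.01%) or edgeR, and 3 were with DESeq2. With limma and with edgeR, 5 were higher at an unadjusted p under 0.05. With limma 1, LAMP1 LABE_00020129, was lower (background 1.07%, log2 fold change -0.60, adjusted p = 0.018). That call was lost when any 1 of fish 1, 2, 3, 4 and 6 was left out (adjusted p of 0.0527 to 0.0903). With fish as a block 4 passed, with TFEB, SMPD1 and ARSA higher. Between segments 3 and 1, 4 were higher, namely TFEB, SMPD1, ARSA and ARSB (background 7.13%), and 2 were lower, LAMP1 LABE_00020129 and PSAP LABE_00048554 (background 6.81%). With fish as a block these counts were 6 and 4. The call of PSAP LABE_00048554 (log2 fold change -0.32, adjusted p = 0.0396) was lost when any 1 fish was left out (adjusted p of 0.0513 to 0.167).

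Of the 27 gene models that rose between segments 1 and 4, 19 made at least 75% of that change on the log2 scale between segments 3 and 4. This share was not computed for all gene models that rose, so whether it is particular to the lysosomal genes is not known. The steps were compared as signed log2 changes, a fall being negative. The step from segment 3 to segment 4 was above that from segment 2 to segment 3 in 13 of the 46 (background 1.63%). It was below in none (background 1.1%), with 2 below at an unadjusted p under 0.05 by limma, edgeR and DESeq2 alike. With fish as a block it was above in 18 and below in 1. This was SCARB2 LABE_00036232, with means of 1870, 2133 and 1482 in segments 2, 3 and 4. MAN2B1 gave the smallest p in this comparison of steps, with a difference of 2.54 on the log2 scale (standard error 0.29, adjusted p = 8.89e-06), and GRN LABE_00012046, TFEB and NEU1 LABE_00066599 gave 3.10, 2.20 and 2.01 (adjusted p of 0.000214, 0.00103 and 0.000809). Of the 13, 6 were enzymes that remove sugars from glycoproteins and glycolipids. The count was 6 without fish 6, 7 without fish 1, 3 or 4, 8 without fish 5, 15 without fish 2 and 16 without its segment 4 library alone. Taken over all 4 segments at once, 28 of the 46 differed in the F test (background 27.5%).

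**Figure D5:**
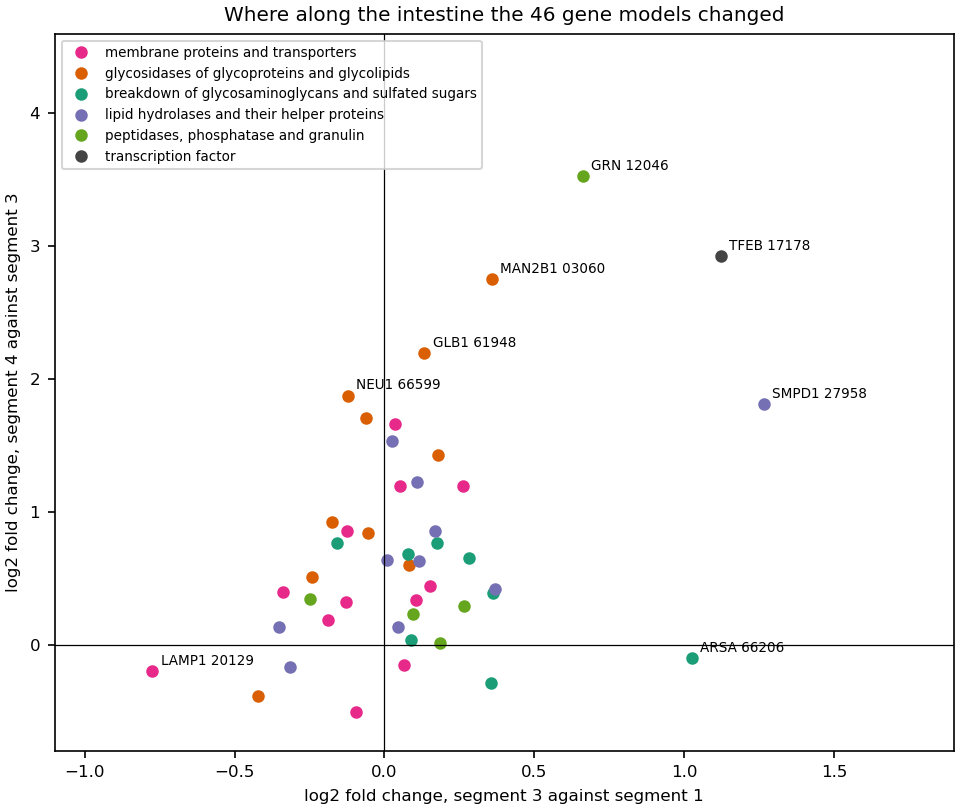
Log2 fold change in segment 3 against segment 1 (x axis) and in segment 4 against segment 3 (y axis) of the 46 gene models, coloured by role. Both axes share the segment 3 libraries. Most points lie near 0 on the x axis and above 0 on the y axis, while TFEB and SMPD1 moved in both steps and ARSA and LAMP1 20129 in the first.

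Single fish showed the same direction for the group. The median log2 difference between segments 4 and 3 over the 46 gene models was 0.54, 0.53, 0.65, 0.69 and 0.92 in fish 1, 3, 4, 5 and 6 and 0.14 in fish 2, where that of all gene models tested was between -0.02 and 0.00 in every fish. The number of gene models higher in segment 4 than in segment 3 was 31 in fish 2 and 35 to 39 in the other fish. The share of all gene models that were higher is not given by fish, so these numbers have no background. They come from the same libraries as the calls and are no separate support.

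Markers of other cells also moved along the gut. Of 12 tested gene models of macrophages and other leukocytes, 5 were higher in segment 3 than in segment 1 (background 7.13%). In segment 4, 5 were higher than in segment 1 (background 17.1%) and 1 was lower (background 14.8%). The whole list of 15 summed to 27280 to 32150 normalized counts in segment 1, 44450 to 53090 in segment 3 and 38390 to 57750 in segment 4. None of the 12 passed between segments 4 and 3 with limma (background 5.21% higher and 5.82% lower), edgeR or DESeq2. None had an unadjusted p under 0.05 in any of these fits, and with fish as a block 1 passed. With such backgrounds, a count of 0 among 12 says little. CORO1A, an actin-binding protein of leukocytes, rose by a log2 fold change of 1.00 between segments 3 and 1 and gave -0.10 between segments 4 and 3. All of the gene models listed for leukocytes had reads in some library, and CSF1R, also listed, had no gene model under that name. MRC1, which the study links to macrophages and reports as expressed mainly in segment 4, was not in the list. The counts therefore do not cover every macrophage gene. TFEB, SMPD1, ARSA and ARSB also rose between segments 1 and 3. The leukocyte sums of segments 3 and 4 overlapped. The part of leukocytes in the changes of the lysosomal genes was not tested in either step.

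Markers of lysosome-rich enterocytes also differed between segments 3 and 4. Of these, CUBN, LRP2 and AMN were already listed by the study among its genes most raised in segment 4 against segment 1. Their rise was thus known before the list was made and is no separate support. Of 7 tested gene models, 5 were higher in segment 4 than in segment 3 (background 5.21%) and 1, LRP2 LABE_00036573, was lower (background 5.82%). CUBN, a receptor for protein uptake, averaged 22.5 normalized counts in segment 3 and 23690 in segment 4, and DAB2, an adaptor of endocytosis, rose by a log2 fold change of 2.18. Of 11 tested gene models of the intestinal epithelium as a whole, 5 fell from segment 3 to segment 4 (background 5.82%). A rise was called for 1 (background 5.21%). The sum of the whole list of 12 was 189200 to 249100 in segment 3 and 90210 to 154300 in segment 4. None of the 6 tested gene models of the exocrine pancreas passed between segments 4 and 1, nor did the 4 of red blood cells. This held with limma, edgeR and DESeq2. None had an unadjusted p under 0.05 in these fits, and with fish as a block 1 red blood cell gene model did. With backgrounds of 17.1% higher and 14.8% lower, a count of 0 among so few gene models says little about these cells. The pancreas sums spread from 161.7 to 56250 in segment 1 and from 238.6 to 83600 in segment 4, so a change there could be missed. Of 12 tested smooth muscle gene models, 1 was higher in segment 4 than in segment 1 (background 17.1%). Against segment 3, 2 were higher (background 5.21%). The share of these cells in the changes of the lysosomal genes was not tested.

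Other genes of the lysosome, from 4 further lists, changed in the same comparison. In these lists 43 of 94 tested gene models were higher and 5 lower in segment 4 than in segment 1, where 17.1% and 14.8% of all gene models were. Of 33 gene models of other hydrolases and helpers 15 were higher and none lower (1 lower at an unadjusted p under 0.05 with limma, edgeR and DESeq2 each). SCPEP1, a serine carboxypeptidase, rose by a log2 fold change of 0.86 (adjusted p = 3.17e-06).

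Of 16 tested gene models of nutrient sensing at the lysosome and of the TFEB family, 11 were higher in segment 4 than in segment 1 (background 17.1%). None was lower (background 14.8%), nor was any lower at an unadjusted p under 0.05 with limma, edgeR or DESeq2. LAMTOR1, which anchors the Ragulator complex to the lysosome, rose by 0.85, RRAGA, a Rag GTPase, by 0.50, FNIP1, a partner of folliculin, by 0.70 and MTOR, the growth kinase, by 0.31 (adjusted p of 0.0242 or less for each of the 4). MITF, of the same family as TFEB, gave -0.32 (adjusted p = 0.542). TFEC, of that family too, rose by 0.50 (adjusted p = 0.0218). Without 1 fish, 8 to 11 of the 16 were called.

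Of 13 tested gene models that tag and sort lysosomal enzymes, 3 were higher in segment 4 than in segment 1 (23.1%, against 17.1% of all gene models tested), namely CLN8, which helps enzymes leave the endoplasmic reticulum (log2 fold change 2.08), IGF2R LABE_00022530, a mannose 6-phosphate receptor (1.03), and SORT1 LABE_00043073, a sorting receptor (1.46, at 49.0 normalized counts or less). CLN8 rose between segments 1 and 3 (2.22, adjusted p = 3.21e-05) and gave -0.14 between segments 4 and 3. Without 1 fish, 2 to 4 of the 13 were called, and with fish as a block 5 were.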

How the data were processed

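Adaptors were removed by the authors with cutadapt, low quality bases with sickle, and quality was checked with FastQC 0.9.2. Reads were mapped with TopHat to the study's own assembly, counted per gene model with featureCounts of Subread, and normalized with DESeq2. The unstranded library kit means that reads of overlapping genes on opposite strands cannot be told apart. The deposited signal is a normalized count per gene model and library, given to 5 significant digits. Whole reads were recovered from it within a tolerance of 0.05 reads for 93.7% to 99.2% of the values of a library. One line without a gene model was left out.

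log2(value + 1) was fitted with limma 3.58.1 in R 4.3.3 with a trend on the mean. The 24 libraries entered a single fit with 1 group per segment, and tests were two-sided. Because of the pseudocount, log2 fold changes of low genes are understated. Samples were grouped by the segment in their labels. The fish pairs the libraries by design. Deviations from the segment means correlated at 0.435 within fish (0.395 to 0.485 by fish) and at -0.0864 where both fish and segment differed. The main fit had no term for fish, so the spread between fish stayed in its error. Gene models that did not pass in it can therefore pass with fish as a block, which was fitted as an alternative. Other alternatives were a pseudocount of 5, no filter, quantile normalization, TMM scaling, edgeR 4.0.16 and DESeq2 1.42.0 on the recovered reads, and leaving out each fish. Leaving out libraries of fish 2, or fish 2 and 6, was chosen after the data were seen. The scripts were tested on simulated data that held no differences between fish, so that test does not bear on the pairing.

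Per-segment values are given for the gene models with the smallest and the largest F test p and with the highest mean in each role, for pairs of 1 name called in opposite directions, and for TFEB. Of the further lists, up to 4 called gene models with the highest mean are named, less some that are not reported here, and MITF, TFEC, the markers and members outside this rule were named after their values were seen. The members and lists were chosen with earlier results of these data known. No sequences or coordinates are given.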

Additional observations from a re-analysis of the deposited data

Results flagged for a closer look

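Of 68 groups of 6 libraries (17 gene models in 4 segments), 2 held a library that lay far from the other 5 by Dixon's test, which chance alone gives in about 1 group in 20. ARSB LABE_00060470 was 563.51 normalized counts in segment 3 of fish 3, with the next library at 486 and the lowest at 464. LAMP2 LABE_00038850 was 19317 in segment 2 of fish 2, with the next library at 13661 and the lowest at 11852.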

How the results depend on the processing

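Over 16 alternatives, 28 to 35 gene models were called between segments 4 and 1, 18 to 31 between segments 4 and 3, and 25 to 36 in the F test. No called gene model changed direction. Of the 30 calls between segments 4 and 1, 27 held under every alternative, and of the 23 between segments 4 and 3, 18 did. Between segments 3 and 1, 5 of 6 calls held, and the count was 10 with fish as a replicate block, the pairing that the design gives. Between segments 3 and 2, where 1 was called, the count was 4 with the replicate block, 4 with DESeq2, 3 without the segment 4 library of fish 2, 2 without its segment 1 and 3 libraries, and 0 to 1 without single fish. The comparison of steps gave 6 to 15 without single fish and 11 to 19 under the other alternatives. Among gene models that were not called, signs changed for CD63 (-0.00902 to 0.181 without single fish), LAMP1 LABE_00067282 (-0.0634 to 0.0747) and IDS (-0.0351 without fish 2 and 6) between segments 4 and 1, and for GRN LABE_00052467 (-0.0208 to 0.0672, and -0.0243 with quantile normalization) between segments 4 and 3. The cause was not tested in any of these. The replicate block changed no call between segments 4 and 1 or 4 and 3 beyond those given with it above and the gains of GAA LABE_00002875 and SCARB2 LABE_00036232 (lower), and of GAA LABE_00020877, TPP1, LAMP1 LABE_00045100, GM2A and PPT1 LABE_00058204 (higher), between segments 4 and 3. Precision was lowest, with standard errors of 1.20 and 1.21, for the NAGLU gene models.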

Other observations

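Other proteins of the lysosomal membrane made a further list of 32 tested gene models, of which 14 were higher and 5 lower in segment 4 than in segment 1 (43.8% and 15.6%, against 17.1% and 14.8% of all gene models tested). TPCN1 LABE_00068161, a cation channel of endosomes and lysosomes, was between 347 and 562 normalized counts in segments 1 to 3 and between 2318 and 7800 in segment 4, without overlap, a log2 fold change of 3.88 (limma adjusted p = 1.17e-12). SLC11A2 LABE_00033135, a transporter of iron, fell in each step from segment 1, with means of 3409, 2843, 1778 and 1094 (log2 fold change -1.64 between segments 4 and 1, limma adjusted p = 3.61e-09). ABCA2, a lipid transporter, fell by 0.81 on the log2 scale (limma adjusted p = 0.00156).

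SIDT2 (LABE_00036988), named for a transporter of nucleic acids in the lysosomal membrane, had a mean of 406000 normalized counts in segment 1, 397400 in segment 2 and 166100 in segment 3. In segment 4 it was between 2388 and 3628.5 in 5 fish and 61896 in fish 2. The log2 fold change between segments 4 and 1 was -6.29 (standard error 0.50, limma adjusted p = 1.08e-09).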
